A study of Arabidopsis thaliana with 18 samples.

Results

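Bisphenol S (BPS), in which a sulfonyl group joins the phenol rings, was set against the 4 bisphenols of the study whose rings are joined by a carbon atom, in roots of wild-type Arabidopsis thaliana. The 15 libraries are those of the 5 bisphenols, out of 18 in the series: 3 BPS libraries and 12 carbon-bridged libraries, 3 each of BPA, BPB, BPE and BPF. The bridging carbon carries a pair of methyl groups in BPA, an ethyl beside a methyl group in BPB, a single methyl group in BPE and only hydrogen in BPF. The 3 remaining libraries come from control roots that received DMSO below 0.01%, and they serve here as a level beside the comparison. For each gene the comparison is the BPS mean minus the mean of the 4 carbon-bridged group means on log2(FPKM + 1), where FPKM is a fragment count divided by transcript length and by library size. The comparison covers the 19484 of 33602 loci with a mean of 1 FPKM or more over the 18 libraries, and differences on this scale understate the change of genes with low FPKM.

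All plants were grown for 14 days after cold treatment on agar plates of diluted Murashige and Skoog medium with sucrose, onto which the seeds were sown with the compound already in the medium. Plates held 1, 3 or 10 mg/L of a compound, but the dose behind each library is not labelled, and whether the 5 compounds were sampled at equal doses is unknown. Nothing in the labels says whether the 3 libraries of a group came from separate plates or pools, and the p-values cover only the spread from library to library within a group, which may be technical. Only 1 sulfonyl compound was used, and each difference is one between these compounds and libraries, and it cannot be told apart from a difference in effective dose.

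The step between low FPKM values put the libraries at about 15860000 to 22140000 fragments (median 18350000), estimated for genes with a single transcript. At these totals, 52.1% to 60.1% of low values came within 0.02 of a whole number of fragments. An even spread at a fixed total would give 4%. Each total was chosen as the one that made this share highest, so 4% is not the level for a share chosen that way. All 13 root markers passed the filter, and the root beta-glucosidase BGLU23 was at 2390 to 4144 FPKM. All 5 seed genes failed the filter, as did 7 of 10 leaf and shoot genes outside photosynthesis, with myrosinase TGG1 at 0 to 2.33 FPKM. The 3 shoot genes that passed were CUT1 at 0.637 to 1.85 FPKM, FDH at 8.08 to 21.3 and PDF1 at 14.7 to 46.2. PDF1 averaged 37.4 FPKM in BPS roots, 22.7 in BPA, 24.3 in BPB, 17.5 in BPE, 29 in BPF and 24.7 in control roots. PDF1 was called higher in BPS than in the carbon-bridged mean, a call lost in 17 of 30 alternative settings. Photosynthesis genes summed to 1119, 596 and 1664 FPKM in BPS roots, 764, 1339 and 929 in BPA roots, 1701, 1739 and 1971 in BPB roots, 780, 911 and 736 in BPE roots, 589, 385 and 963 in BPF roots, and 223, 429 and 184 in control roots. Libraries of a group also differed: on the leading principal component of the 15 bisphenol libraries (42.2% of the variance) BPB library 3 lay at 51.6 and the other BPB libraries at 11.7 and 19, while BPA library 3 lay at 15.1 and the other BPA libraries at -48.6 and -37.3. The BPS libraries lay at 37, 61.7 and 67.1.

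Bisphenols are phenolic chemicals that plant cells can treat as foreign compounds, oxidising them with cytochrome P450s, joining them to glucose or glutathione and moving the products with transporters. Roots short of phosphate switch on a well-studied set of genes. The transcription factor PHR1 binds the letters GNATATNC in their promoters, SPX proteins restrain PHR1 when phosphate is ample, PHT1 proteins import phosphate, and enzymes such as SQD2 and MGD2 replace phospholipids by sulfolipid and galactolipid. The background on phosphate is given because that list had the highest share of called genes in the comparison.

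Every BPS library lay above all 12 carbon-bridged libraries for 151 genes (0.775% of those tested) and below all 12 for 268 genes (1.38%). At a gap of at least 1 on the log2 scale, a doubling of FPKM + 1, 1 gene stood above and 1 below: CYP71A12, a P450 of camalexin synthesis, and BT1, a BTB and TAZ domain protein. The same count with another compound in the place of BPS gave 1194 genes above and 805 below for BPE, 1037 and 218 for BPB, 59 and 134 for BPF, and 37 and 56 for BPA. The counts for BPS moved with scaling and with single libraries: they were 351 above and 298 below after the libraries were shifted to a common median, 1230 and 636 without BPS library 1, 317 and 836 without BPS library 3, 625 and 404 without BPB library 3, and 342 and 552 without BPF library 2. The counts for the other compounds were not recomputed in these ways, and neither the order of the compounds nor the balance of above and below is read from them.

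**Figure D1:**
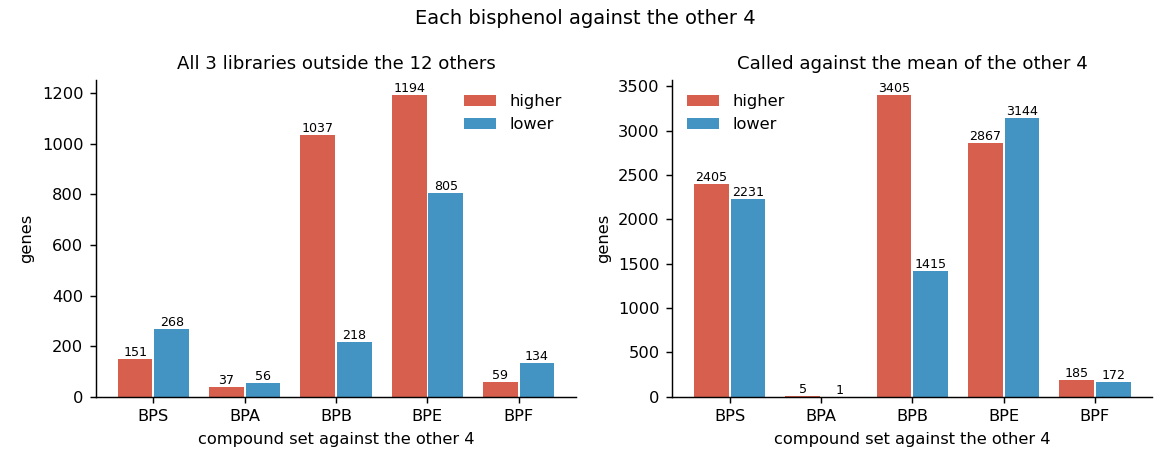
Genes for which all 3 libraries of a compound lie above or below the 12 libraries of the other 4 bisphenols (left), and genes called at an adjusted p below 0.05 against the mean of the other 4 (right); the y axes count genes. BPS has 151 separated genes above and 268 below, BPE 1194 and 805.

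CYP71A12 (AT2G30750, chr2:13099486-13101371 on the reverse strand, TAIR10.1) had 30.7, 41 and 18.8 FPKM in BPS roots, against 0.385, 1.84 and 3.02 in BPA roots, 3.65, 0.483 and 3.21 in BPB roots, 5.05, 5.29 and 6.59 in BPE roots, 2.2, 8.58 and 1.76 in BPF roots, and 2.88, 3.51 and 2.9 in control roots. The lowest BPS library was above the highest of the other 15. Its log2 difference from the carbon-bridged mean was 2.94 ± 0.40 (SE; adjusted p = 0.00276, limma with Benjamini-Hochberg adjustment over all tested genes), and it was called against each of the 4 compounds, by 2.17 (BPE) to 3.57 (BPA).

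BT1 (AT5G63160, chr5:25333172-25335570, reverse strand) had 32.8, 14.6 and 21.2 FPKM in BPS roots, against 221, 166 and 91.8 in BPA roots, 85.4, 246 and 85.9 in BPB roots, 227, 259 and 251 in BPE roots, 114, 76.5 and 104 in BPF roots, and 139, 157 and 113 in control roots. The gap between the BPS libraries and the nearest of the other 15 was 1.20 log2 units. Its difference was -2.68 ± 0.31 (SE; adjusted p = 0.00192, limma), and its differences from single compounds ran from -3.44 (BPE) to -2.10 (BPF), all called. BT1 kept its call in every alternative run for it, with a log2 difference between -2.96 and -2.41.

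**Figure D2:**
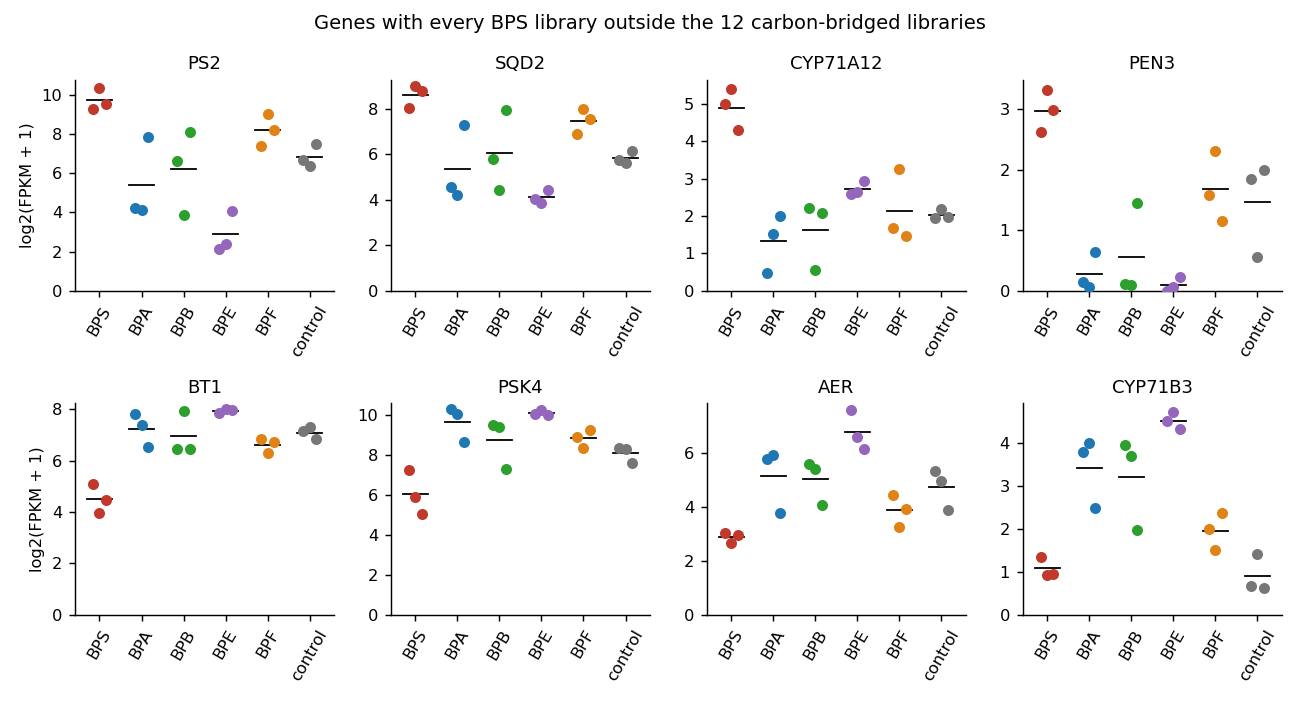
log2(FPKM + 1) of 8 separated genes in each library (points) with the group mean (bar), by compound and control. The BPS points of PS2, SQD2, CYP71A12 and PEN3 lie above, and those of BT1, PSK4, AER and CYP71B3 below, every point of BPA, BPB, BPE and BPF; the control points of CYP71B3 lie beside those of BPS.

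Among the 12 separated and called genes with the highest differences, 3 are on the list of phosphate starvation genes: PS2, SQD2 and PHO1;H1. PS2 (AT1G73010), a pyrophosphatase of that response, had 627, 1305 and 728 FPKM in BPS roots, against 18, 16.6 and 227 in BPA roots, 98.5, 13.6 and 274 in BPB roots, 3.38, 4.31 and 15.9 in BPE roots, 168, 518 and 290 in BPF roots, and 99.2, 80.5 and 181 in control roots. SQD2 (AT5G01220), which completes the synthesis of sulfolipid, had 258, 517 and 444 FPKM in BPS roots, against 12 carbon-bridged values from 13.5 to 255 with a median of 38.2, and 53, 47.7 and 69.5 in control roots. In both genes the BPF libraries and library 3 of BPA and of BPB were the nearest to BPS, and the BPE libraries were the lowest or among the lowest. The log2 difference was 4.05 ± 0.80 (adjusted p = 0.00519) for PS2 and 2.86 ± 0.62 (adjusted p = 0.00722, SE and limma for both) for SQD2.

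PHO1;H1 (AT1G68740), of the family of the phosphate exporter PHO1, differed by 2.37 ± 0.54 (SE). OCT1 (AT1G73220), an organic cation transporter that is not on the list, differed by 3.99 ± 0.90. OCT1 had 106, 141 and 164 FPKM in BPS roots, against a carbon-bridged range of 0.3 to 96.6 and 10, 9.29 and 17.5 in control roots. For these 4 genes BPS was called against BPA and BPE each time and against BPF in none. The BPS minus BPF difference of PS2 was 1.52 with a 95% interval from -0.64 to 3.68, and that of SQD2 was 1.14 with an interval from -0.52 to 2.80, so the intervals hold both no difference and one of several fold.

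PEN3 (AT5G36150, a pentacyclic triterpene synthase) and CYP702A5 (AT4G15393) were separated and were also called higher in all 4 pairs. PEN3 had 5.16, 8.96 and 6.87 FPKM in BPS roots, against 0 to 3.97 over the 12 carbon-bridged libraries and 2.6, 0.475 and 2.99 in control roots. CYP702A5 had 118, 155 and 154 FPKM in BPS roots, against 7.32 to 91.5 with a median of 31.3, and 31.8, 34.4 and 59.9 in control roots. The differences were 2.32 ± 0.32 for PEN3 and 2.30 ± 0.33 for CYP702A5 (SE; adjusted p = 0.00276 for each, limma). The other 5 in the leading 12 were AT5G04120 (a phosphoglycerate mutase family protein, 3.08), AT1G23110 (2.65), AT4G36850 (a PQ-loop transmembrane protein, 2.27), AT3G28510 (a P-loop nucleoside triphosphate hydrolase, 2.23) and AT5G38910 (a cupin, 2.16). AT5G04120 is the exception among them for the control, whose libraries, at 183, 91.3 and 200 FPKM, overlapped the BPS libraries at 98.6, 156 and 126.

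On the lower side, PSK4 (AT3G49780, chr3:18465318-18467224, forward strand), which encodes a precursor of the growth peptide phytosulfokine, had 152, 58.3 and 31.2 FPKM in BPS roots, against 1258, 1033 and 400 in BPA roots, 715, 666 and 154 in BPB roots, 1045, 1221 and 1015 in BPE roots, 477, 316 and 600 in BPF roots, and 321, 310 and 192 in control roots. BPB library 3 was within 0.03 log2 units of the nearest BPS library. The difference was -3.27 ± 0.48 (SE; adjusted p = 0.00276, limma), and all 4 pairs were called. RAP2.9 (AT4G06746), a gene of the AP2 transcription factor family, was low in BPS roots at 2.15, 0.466 and 1.42 FPKM, against 71.5, 50.6 and 14.2 in BPA roots, 6.56, 3.26 and 3.12 in BPB roots, 56.9, 93.8 and 89.8 in BPE roots, 49.6, 15 and 18.4 in BPF roots, and 98.7, 90.1 and 37.2 in control roots. BPB was the nearest to BPS here, with a BPS minus BPB difference of -1.19 (95% interval -2.39 to 0.01) that was not called.

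BPB was likewise the nearest for ZF14 (AT1G58340), an efflux transporter of the MATE family, with 3.3, 3.33 and 4.36 FPKM in BPS roots, against 8.88 to 118 over the 12 carbon-bridged libraries and 47.2, 57.9 and 16.3 in control roots. AT5G16010, annotated as a steroid dehydrogenase family protein, had 11.6, 14.1 and 11.4 FPKM in BPS roots, against 20.8 to 599 in the carbon-bridged libraries and 573, 417 and 366 in control roots. These genes differed by -2.85 ± 0.49 and -3.17 ± 0.51 (SE), and each was called against BPA, BPE and BPF and not against BPB. AT5G54300, a DUF761 protein, differed by -3.49 ± 0.60.

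TPS11 (AT2G18700), a class II trehalose phosphate synthase protein, had 18.4, 8.16 and 10.9 FPKM in BPS roots, against 20.6 to 269 in the carbon-bridged libraries and 91.6, 108 and 32.2 in control roots, a difference of -2.71 ± 0.41 (SE; adjusted p = 0.00297, limma). Its BPS minus BPB difference of -1.35 (95% interval -2.46 to -0.23) was not called after adjustment. AT3G59940 and AT1G80440, a pair of kelch repeat proteins, were lower in BPS than in each of the 4 compounds, by -2.36 ± 0.41 and -2.79 ± 0.50 against the mean; AT1G80440 was not separated. Their control libraries, at 9.36, 14.4 and 4.26 FPKM and at 13.2, 20.9 and 5.77 FPKM, overlapped those of BPS (5.45, 1.87 and 6.06, and 22.5, 4.83 and 6.56). The remaining genes of the lowest 12 were UPI (AT5G43580, a serine protease inhibitor, -2.44), AER (AT5G16970, alkenal reductase, -2.33), CYP735A2 (AT1G67110, which hydroxylates cytokinins to their trans-zeatin forms, -2.27) and CYP71A20 (AT4G13310, a P450, -2.21). UPI and AER were not called against BPF, and CYP735A2 and CYP71A20 were called against BPA and BPE only. The control libraries of UPI and CYP71A20 overlapped those of BPS. For CYP71A20, BPS minus control was -0.28 and the carbon-bridged mean minus control was 1.925.

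The control libraries fell into different places for these genes, as the plot of 8 genes by library shows. Of the 151 separated genes above, 130 had BPS above all 3 control libraries while the control was neither wholly above nor wholly below the carbon-bridged range, and 16 had a control that overlapped both sides. Of the 268 below, 187 had BPS below all control libraries in the same way and 67 had an overlapping control. In 13 of the 268 and 2 of the 151, the control lay wholly on the side of BPS, outside the 12 carbon-bridged libraries. CYP71B3 (AT3G26220), a P450, is of that kind: it had 1.56, 0.895 and 0.942 FPKM in BPS roots, against 1.87 to 25.5 in the carbon-bridged libraries and 0.585, 1.65 and 0.544 in control roots. ABCG37 (AT3G53480), an exporter of phenolic compounds at the root surface, had 64.9, 63.8 and 57 FPKM in BPS roots, against 73.1 to 108 and 64, 61.2 and 57.1 in control roots. For CYP71B3 the carbon-bridged mean minus control was 2.38 (adjusted p = 0.00105, limma), and BPS minus control was 0.18 (adjusted p = 0.823).

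Against the carbon-bridged mean, 4636 genes were called at an adjusted p below 0.05 (23.8%), 2405 higher in BPS (12.3%) and 2231 lower (11.5%). Of these, 641 higher and 488 lower genes differed by at least 1 log2 unit, and 405 were also separated. In the place of BPS, the same contrast called 6011 genes for BPE, 4820 for BPB, 357 for BPF and 6 for BPA. The fit takes its error from the spread within each compound. When the 12 carbon-bridged libraries were treated as a single group, so that differences among BPA, BPB, BPE and BPF entered the error, 1 gene was called, BT1 (adjusted p = 0.038); CYP71A12 had an adjusted p of 0.0573. The count was 658 without BPS library 2, 2477 without BPS library 3 and 1447 without BPE in the mean.

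Pair by pair, p-values were adjusted over the 77936 tests of 4 pairs. BPS differed from BPE at 6412 genes (32.9%), from BPA at 3551 (18.2%), from BPB at 2632 (13.5%) and from BPF at 1555 (7.98%). Against BPB, most calls were lower in BPS (1832 of 2632), against 1535 of 3551 for BPA. With p adjusted within the pair, BPF had 593 calls, 204 higher and 389 lower. In all, 81 genes (0.416%) were called in the same direction in all 4 pairs, 34 higher and 47 lower in BPS, and 62 of them were also separated. Of the 4636 genes called against the mean, 81 were called the same way in 4 pairs, 1513 in 3, 1797 in 2, 1204 in 1 and 41 in none. A call against the mean thus rested on all 4 compounds in few genes. MYB19 (AT5G52260), a transcription factor gene, and PGSIP3 (AT4G33330), a glycogenin-like protein, are among the 34: MYB19 had 3.38, 10.4 and 8.17 FPKM in BPS roots, against 0.354 to 4.5 in the carbon-bridged libraries and 1.04, 0.436 and 0.843 in control roots. Among the 47 are J11 (AT4G36040), a DnaJ chaperone, at -1.87, and AT5G14120, a major facilitator transporter.

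Phosphate starvation genes were higher in BPS roots as a group. Of the 30 listed, 29 were tested, 26 were higher and 1 was lower, with a median difference of 1.93, against a median of 0.00 over all tested genes. The list was chosen with earlier results of these data known, so its direction is not independent evidence. The importers were higher: PHT1;2 (AT5G43370) by 1.53 ± 0.27 (SE; adjusted p = 0.0039, limma), PHT1;1 (AT5G43350) by 1.04 ± 0.20, PHT1;4 (AT2G38940) by 2.86 ± 0.58, and PHF1 (AT3G52190), which helps them leave the endoplasmic reticulum, by 1.50 ± 0.28. PHT1;1 and PHT1;2 are neighbouring near-copies whose reads may be shared.

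PHT1;2 had 117, 262 and 193 FPKM in BPS roots, against 53.1, 46 and 73.2 in BPA roots, 82.1, 66.5 and 142 in BPB roots, 24.9, 22.4 and 39.7 in BPE roots, 82.5, 151 and 82.8 in BPF roots, and 87.2, 64.6 and 102 in control roots. BPS library 1, the lowest of its group, lay below BPB library 3 and BPF library 2, so the groups overlapped. Summed over the list, BPS libraries had 3261, 6606 and 5722 FPKM, against 599 to 3513 in the carbon-bridged libraries and 1864, 1502 and 2153 in control roots, so BPS library 1 lay below BPB library 3 (3513) and BPF library 2 (3348). Of the list, 3 genes were separated upward. The enzymes that remodel lipids had large differences: MGDC (AT2G11810, a galactolipid synthase also called MGD3) 3.98 ± 0.86, MGD2 (AT5G20410) 2.83 ± 0.57, NPC4 (AT3G03530, a phospholipase C) 2.84 ± 0.65, PLDP2 (AT3G05630, a phospholipase D) 2.41 ± 0.44 and SQD1 (AT4G33030) 1.93 ± 0.44. PEPC1 (AT1G17710), a phosphatase of phosphocholine and phosphoethanolamine, had the highest difference of all tested genes at 4.29 ± 0.92.

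Of the signalling genes, SPX1, SPX2 and SPX3 were higher, SPX3 (AT2G45130) by 3.49 ± 0.85, as was the noncoding RNA IPS1 (AT3G09922) by 3.51 ± 1.08. PHR1 (AT4G28610) was the 1 lower gene, with 26.6, 27.6 and 30.6 FPKM in BPS roots, against 30.8 to 46.2 in the carbon-bridged libraries and 43.9, 41 and 38.4 in control roots, a difference of -0.38 ± 0.09 (SE; adjusted p = 0.00874, limma). The ubiquitin-conjugating enzyme gene PHO2 (0.01) and the ribonuclease gene RNS1 (0.26) were not called. The median difference of the list was 2.64 from BPE, 2.38 from BPA, 1.72 from BPB and 0.94 from BPF. In those pairs 26, 25, 16 and 1 of 29 genes were higher. Of all 19484 tested genes, 3341, 2016, 800 and 733 were higher in the same order, so the 1 gene against BPF is near the share of all genes. Against control, 13 listed genes were higher and 2 lower in BPS, with a median of 1.67. The carbon-bridged mean had 2 higher and 1 lower, with a median of -0.42. Over all tested genes, 12.3% were higher and 8.71% lower in BPS than in control, and 13.7% and 6.72% in the carbon-bridged mean. These last comparisons share the control libraries. Without BPS library 2, 4 genes of the list were called higher against the carbon-bridged mean and the median was 1.80; without BPE in the mean, 19 were called higher.

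**Figure D3:**
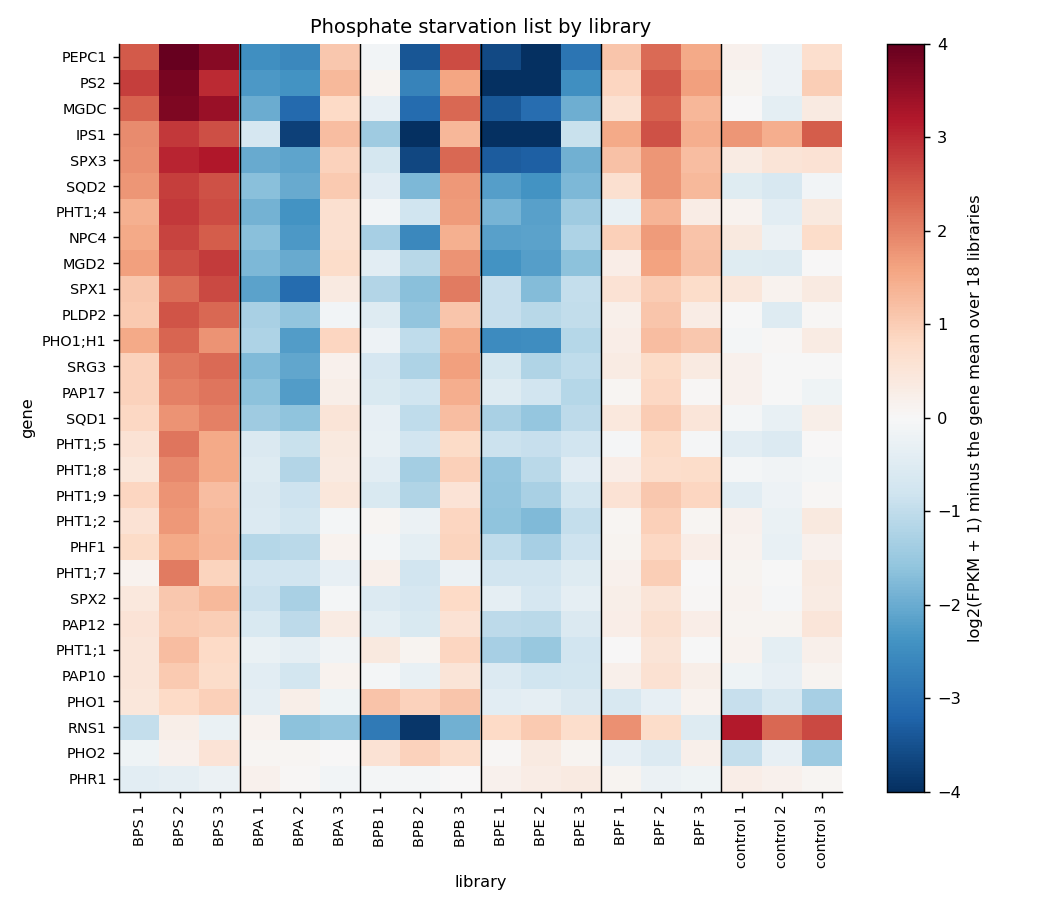
log2(FPKM + 1) of the 29 tested phosphate starvation genes in each of the 18 libraries, minus the gene's mean over the 18 (colour, from -4 in blue to 4 in red), with the genes ordered by their BPS minus carbon-bridged difference. BPS libraries 2 and 3 are the reddest columns, library 3 of BPB and library 2 of BPF are about as red as BPS library 1, and the BPE columns are mostly blue.

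The letters GNATATNC, searched on both strands in the 300 bases from 250 before to 50 after the gene start, occurred in 13 of the 29 phosphate genes (44.8%), in 6.26% of all tested genes, in 10.6% of the genes separated upward and in 5.62% of those separated downward. Shown here are the 250 bases before the start of 4 phosphate genes named above that hold a match, so that the matched letters can be seen in place, read from the RefSeq TAIR10.1 genome 5′ to 3′ on the gene's strand, with the matched letters in capitals. The stretches are chr1:27466349-27466598 for PS2 (reverse strand), chr5:17415448-17415697 for PHT1;2 (forward), chr3:1634944-1635193 for PLDP2 (forward) and chr2:18606160-18606409 for SPX3 (forward).
PS2: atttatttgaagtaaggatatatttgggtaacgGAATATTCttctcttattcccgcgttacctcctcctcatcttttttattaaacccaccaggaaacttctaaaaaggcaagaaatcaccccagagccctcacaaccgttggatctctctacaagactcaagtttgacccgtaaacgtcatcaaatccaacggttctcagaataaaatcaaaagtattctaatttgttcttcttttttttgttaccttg
PHT1;2: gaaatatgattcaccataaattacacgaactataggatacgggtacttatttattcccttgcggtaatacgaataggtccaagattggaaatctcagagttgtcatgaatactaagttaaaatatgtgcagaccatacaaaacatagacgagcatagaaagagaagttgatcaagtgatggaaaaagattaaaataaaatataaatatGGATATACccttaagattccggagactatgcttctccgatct
PLDP2: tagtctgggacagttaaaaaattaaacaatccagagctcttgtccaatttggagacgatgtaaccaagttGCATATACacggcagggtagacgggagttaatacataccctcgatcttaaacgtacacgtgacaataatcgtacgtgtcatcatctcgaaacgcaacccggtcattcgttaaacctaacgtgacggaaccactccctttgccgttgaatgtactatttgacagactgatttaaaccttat
SPX3: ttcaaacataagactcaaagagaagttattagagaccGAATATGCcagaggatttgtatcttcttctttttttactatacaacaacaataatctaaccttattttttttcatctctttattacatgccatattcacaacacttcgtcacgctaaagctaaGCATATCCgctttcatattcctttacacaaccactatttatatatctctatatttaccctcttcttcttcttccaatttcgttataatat
The match begins 217 bases before the start in PS2, 42 in PHT1;2 and 180 in PLDP2, and SPX3 has a pair of matches, at 213 and 90. A match is a description of the letters and not a measured site.

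Other letters were searched in the same windows. The G-box, CACGTG, was found in 13.5% of genes separated downward, 9.27% of those separated upward and 8.69% of all tested genes, and CCGAC, the core of the dehydration-responsive element, in 21.3%, 10.6% and 16.3%. The core of the W-box, TTGAC, was in 53.9%, 56.3% and 51.4%. The letters TGACG, bound by TGA factors, were in 24.7%, 25.8% and 23.6%. The sulfur-response letters GAGAC were in 30.7%, 29.1% and 32.3%.

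Genes of sulfur supply moved in the same direction in part. Of 36 tested, 14 were higher in BPS, 4 were lower, and the median difference was 0.59. Against BPA, BPB, BPE and BPF in turn, 14, 8, 16 and 1 were higher and 3, 3, 3 and 3 lower. Of all 19484 tested genes, 2016, 800, 3341 and 733 were higher and 1535, 1832, 3071 and 822 lower. The median of the list was 0.16 from BPF and 0.36 from control. Against control 6 were higher and 6 lower, where 12.3% of all tested genes were higher and 8.71% lower. SULTR2;1 (AT5G10180), a sulfate transporter of the vascular tissue, had 51.7, 202 and 154 FPKM in BPS roots, against 3.71 to 146 in the carbon-bridged libraries and 93.3, 78.9 and 126 in control roots, a difference of 2.72 ± 0.59 (SE; adjusted p = 0.00731, limma). The BPF libraries and the control overlapped BPS, and the BPS minus BPF difference of 0.49 had a 95% interval from -1.10 to 2.07. ATSDI1 (AT5G48850), which restrains glucosinolate synthesis under sulfur shortage, was uneven within BPS at 6.55, 129 and 163 FPKM, against 0.77 to 41.4 and 4.24, 2.81 and 6.71 in control roots. BGLU28 (AT2G44460, 3.59 ± 0.86), GGCT2;1 (AT5G26220, 3.27 ± 0.81), LSU1 (AT3G49580, 2.33 ± 0.63) and SERAT3;2 (AT4G35640, 1.50 ± 0.26) were also higher. Averaged over the list, log2(FPKM + 1) was 4.73, 5.65 and 5.70 in BPS roots and 4.82, 4.69 and 4.90 in control roots. The carbon-bridged libraries ran from 4.15 to 5.37, so BPS library 1 lay inside their range and that of the control.

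The 4 lower sulfur genes were SULTR3;5 (AT5G19600), the regulator EIL3 (AT1G73730), and GSH1 (AT4G23100) and GSH2 (AT5G27380), which make glutathione. GSH1 differed by -0.70 ± 0.16 and GSH2 by -0.55 ± 0.14 (SE; adjusted p = 0.00863 and 0.0131, limma). The number of sulfur genes called fell to 1 without BPS library 2, to 6 without BPS library 3 and to 7 without BPE in the mean. In the nitrogen list 6 of 24 genes were higher and 3 lower. The transporter NRT2:1 (AT1G08090) had 18.5, 119 and 47.3 FPKM in BPS roots, against 0.915 to 81 in the carbon-bridged libraries and 83.1, 28.8 and 106 in control roots, and the ammonium transporters AMT1;2 (AT1G64780, 1.50 ± 0.21) and AMT1;3 (AT3G24300, 1.38 ± 0.26) were higher too.

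Root hair and cell wall genes were the next group. Of 32 root hair genes, 17 were higher in BPS and 1, RSH2 (AT1G12950), was lower, with a median of 0.95. SHV2 (AT5G49270), the COBRA-like protein of growing hairs, had 22.7, 31.2 and 22.6 FPKM in BPS roots, against 5.07 to 21 in the carbon-bridged libraries and 19.9, 15.3 and 19.8 in control roots. PRP1 (AT1G54970), a proline-rich wall protein, had 30.5, 47.1 and 30.5 FPKM in BPS roots, against 1.93 to 30.5 and 28.9, 12.6 and 22 in control roots, so it was separated by less than the digits given. For this list the BPF and control libraries were close to BPS: the median difference was 0.05 from BPF, 1.11 from BPA, 1.20 from BPB, 1.49 from BPE and 0.14 from control, with 0, 12, 12, 22 and 1 genes called higher. Of all 19484 tested genes, 733, 2016, 800, 3341 and 2396 were called higher in the same order. No gene of the root hair list was called without BPS library 2, and 5 were without BPE in the mean. The root markers GL2 and WER (MYB66), regulators of cells that form no hair, were also called higher in BPS. GL2 averaged 4.53 FPKM in BPS roots, against 1.49, 3.46, 1.56 and 2.29 in BPA, BPB, BPE and BPF roots. WER averaged 25.4 FPKM, against 13.4, 18.2, 10 and 18.1. In bulk roots, more hair cells and more RNA per hair cell cannot be told apart, and the share of each epidermal cell type was not tested.

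Of 22 xyloglucan endotransglucosylase genes, which cut and rejoin wall xyloglucan, 11 were higher and none was lower, with a median of 1.08. Against BPA, BPB, BPE and BPF in turn, 9, 1, 15 and 1 of them were higher and 0, 1, 1 and 0 lower. XTH12, XTH13 and XTH26 are on the root hair list as well. XTH16 (AT3G23730) had 36.5, 27.5 and 42.7 FPKM in BPS roots, against 2.47, 3 and 11.2 in BPA roots, 10.8, 15 and 28.8 in BPB roots, 1.93, 1.53 and 3.39 in BPE roots, 7.42, 17.1 and 10.4 in BPF roots, and 5.22, 3.53 and 9.97 in control roots. Only BPB library 3 exceeded a BPS library. XTH19 (AT4G30290) was separated, at 228, 242 and 188 FPKM in BPS roots, against 10.1 to 177 and 51.6, 35.8 and 115 in control roots.

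Class III peroxidases, secreted enzymes that oxidise phenolics in the wall, had 21 of 60 genes higher and 5 lower, with a median of 0.44. AT3G01190, the separated member, had 354, 419 and 374 FPKM in BPS roots, against 76 to 325 in the carbon-bridged libraries and 132, 125 and 189 in control roots, a difference of 1.20 ± 0.20 (SE; adjusted p = 0.00353, limma). Of 28 Casparian strip and suberin genes, 10 were higher and 1 lower; CASP4 (AT5G06200, 0.88 ± 0.21) and CASP5 (AT5G15290, 0.94 ± 0.21), scaffold proteins of the strip, were separated, CASP5 by less than the digits given (7.99 FPKM in BPS library 3 and in BPF library 2). Aquaporins had 11 of 28 higher and 2 lower, and cell cycle genes 7 of 19 higher and none lower, where 12.3% of all tested genes were higher and 11.5% lower. These groups held smaller differences than the phosphate genes, with medians of 0.45, 0.37 and 0.48. Called higher against BPA, BPB, BPE and BPF in turn were 9, 5, 7 and 0 Casparian strip and suberin genes, with 0, 0, 2 and 0 lower. Aquaporins had 11, 2, 14 and 2 higher, with 1, 6, 2 and 0 lower. Cell cycle genes had 4, 0, 17 and 0 higher and none lower. Peroxidases had 15, 8, 27 and 4 higher, with 3, 0, 8 and 1 lower. Of all 19484 tested genes, 2016, 800, 3341 and 733 were higher in these pairs.

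**Figure D4:**
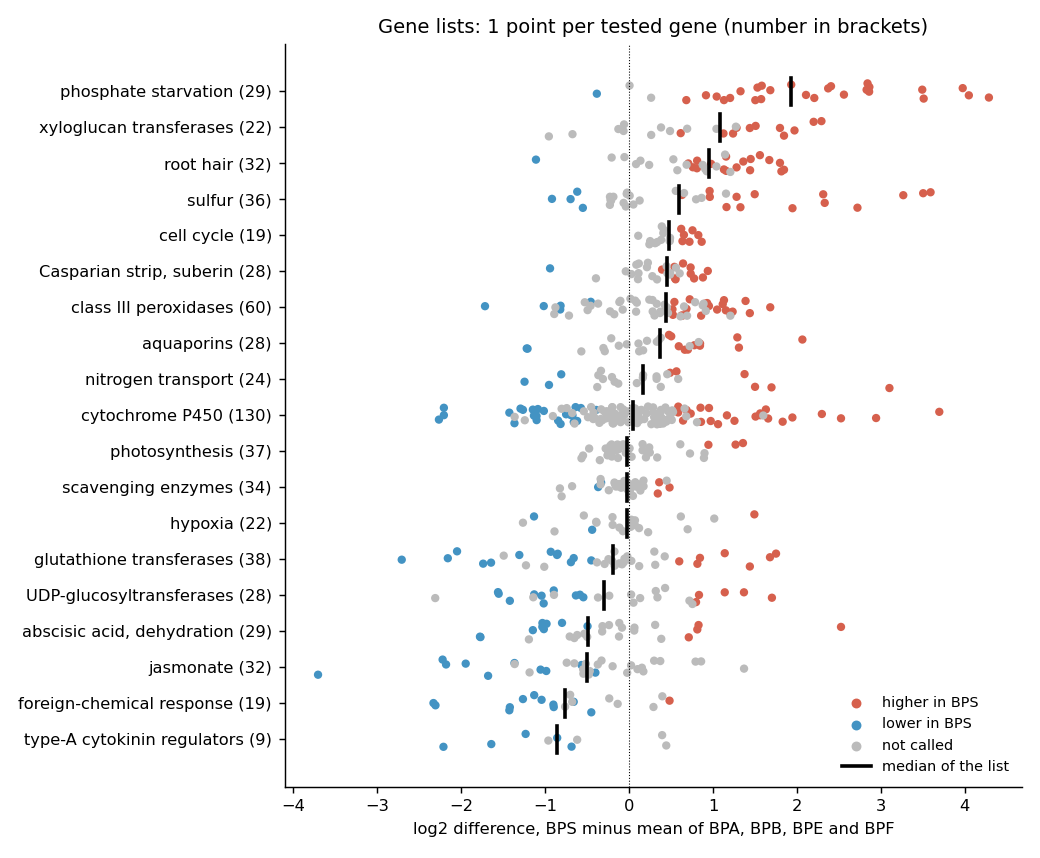
Difference of each tested gene, BPS minus the carbon-bridged mean on log2(FPKM + 1), for 19 gene lists, with genes called higher in red, called lower in blue and the list's median as a black bar. The phosphate list has the highest median (1.93) and the type-A cytokinin regulators have -0.86.

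Of 19 tested genes known to respond to foreign chemicals, 11 were lower in BPS roots than in the carbon-bridged mean and 1 was higher, with a median of -0.76. The difference varied with the compound: the median was -1.52 from BPE, with 13 genes lower and 1 higher, and -0.00 from BPB, with 2 lower and 1 higher. AER had 7.07, 5.29 and 6.8 FPKM in BPS roots, against 54.5, 59.3 and 12.7 in BPA roots, 47, 41.2 and 15.9 in BPB roots, 192, 94.9 and 69.3 in BPE roots, 20.9, 8.52 and 14 in BPF roots, and 38.8, 30.1 and 13.9 in control roots. CYP81D11 (AT3G28740), a P450 induced by many chemicals, had 67.8, 37.5 and 39.1 FPKM in BPS roots, against 52.3 to 184 in the carbon-bridged libraries and 51.8, 50.3 and 43.9 in control roots. BPS roots and control roots were at about the same level for CYP81D11, with a difference of -0.06 (adjusted p = 0.886, limma), while the carbon-bridged mean was above control by 1.36 (adjusted p = 0.0008). ABCG40 (AT1G15520), a transporter of abscisic acid, differed by -2.31 ± 0.31 and had nearly the same level in BPB, at 2.11, 0.799 and 0.811 FPKM, as in BPS, at 2.31, 0.692 and 0.836.

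Glutathione transferases were divided, with 12 of 38 lower and 7 higher. Against BPA, BPB, BPE and BPF in turn, 9, 2, 15 and 12 were lower and 6, 3, 7 and 1 higher. Of all 19484 tested genes, 1535, 1832, 3071 and 822 were lower in these pairs and 2016, 800, 3341 and 733 higher. GSTU19 (AT1G78380), among the most abundant, had 689, 591 and 693 FPKM in BPS roots, against 832 to 1700 in the carbon-bridged libraries and 976, 899 and 962 in control roots, a difference of -0.85 ± 0.17 (SE; adjusted p = 0.00516, limma) that was called in all 4 pairs. GSTU14 (AT1G27140) was separated upward, at 72.2, 85.6 and 102 FPKM in BPS roots, against 9.71 to 70.6 and 60.4, 48.3 and 76.1 in control roots. The neighbouring genes GSTU1 to GSTU7 share sequence, so that reads may be split among them, and each of them was lower; GSTU5 (AT2G29450) ranged from 29.9 to 388 FPKM within BPS. UDP-glucosyltransferases had 10 of 28 lower and 5 higher. In the same order of pairs, 6, 5, 10 and 3 of them were lower and 6, 1, 7 and 5 higher. UGT73B2 (AT4G34135), which glucosylates flavonols, had 34.7, 34.9 and 37.5 FPKM in BPS roots. It had 43.1 to 109 FPKM in the carbon-bridged libraries and 68.8, 53.1 and 67 in control roots. Of 130 tested P450 genes, 23 were higher and 23 lower, and CYP716A2 (AT5G36140) had the highest difference, at 3.70 ± 0.60.

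Type-A response regulators, which rise with cytokinin signalling and dampen it, were lower for 5 of 9 genes and higher for none, with a median of -0.86. Against BPA, BPB, BPE and BPF in turn, 5, 1, 3 and 2 were lower and 0, 0, 1 and 0 higher. Of all 19484 tested genes, 1535, 1832, 3071 and 822 were lower in these pairs. ARR7 (AT1G19050) had 7.71, 16.4 and 12.8 FPKM in BPS roots, against 170, 193 and 64.7 in BPA roots, 55.7, 19.1 and 14.3 in BPB roots, 62.9, 44.3 and 79.5 in BPE roots, 70.5, 50.8 and 55.3 in BPF roots, and 41.6, 60.3 and 79.8 in control roots. Only BPB library 3 fell within the BPS range. The difference was -2.21 ± 0.37 (SE; adjusted p = 0.00361, limma), and ARR6 (AT5G62920) differed by -1.64 ± 0.30. The count called lower against the carbon-bridged mean was 2 without BPS library 1, where the median was -0.41, and 2 without BPS library 2.

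Jasmonate genes had 10 of 32 lower and none higher, with a median of -0.50. The 10 genes include enzymes that inactivate the hormone, such as ST2A (AT5G07010, a hydroxyjasmonate sulfotransferase, -1.68 ± 0.29) and CYP94B1 (AT5G63450, -1.36 ± 0.45), and also JAR1 (AT2G46370, -0.99 ± 0.28), which makes the active conjugate. Of the listed JAZ repressors, JAZ12 was lower and the others were not called. For ST2A the BPB libraries were the nearest to those of BPS: the gene had 32, 22.3 and 15.1 FPKM in BPS roots, against 120, 84.8 and 45 in BPA roots, 20, 21 and 14.1 in BPB roots, 179, 243 and 250 in BPE roots, 144, 87.8 and 56.9 in BPF roots, and 304, 218 and 227 in control roots. The median difference of the list was 0.72 from BPB, with 2 genes higher and none lower, -0.62 from BPE, and -1.20 from BPF, with 12 lower. Without BPS library 3 the median against the carbon-bridged mean was 0.15, and 6 genes were lower.

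Abscisic acid and dehydration genes had 9 of 29 lower and 4 higher, with a median of -0.49. LTI30 (AT3G50970), a dehydrin, had 506, 318 and 234 FPKM in BPS roots, against 2331, 1926 and 812 in BPA roots, 397, 199 and 174 in BPB roots, 2544, 3469 and 3036 in BPE roots, 2122, 1360 and 1316 in BPF roots, and 2947, 2630 and 2482 in control roots. CYP707A3 (AT5G45340), which breaks down abscisic acid, went the other way, at 64, 127 and 63 FPKM in BPS roots, against 77, 124 and 23.9 in BPB roots, 2.58 to 29.1 in the other carbon-bridged libraries, and 5.53, 4.48 and 8.48 in control roots. For LTI30 the BPS minus BPB difference was 0.48 (95% interval -0.36 to 1.33) and for CYP707A3 it was 0.38 (-0.85 to 1.61), neither called. The direction of the list depended on the compounds in the mean: without BPE, 4 genes were higher and 2 lower, with a median of -0.15, and against BPB alone 5 were higher and none lower, with a median of 0.38.

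**Figure D5:**
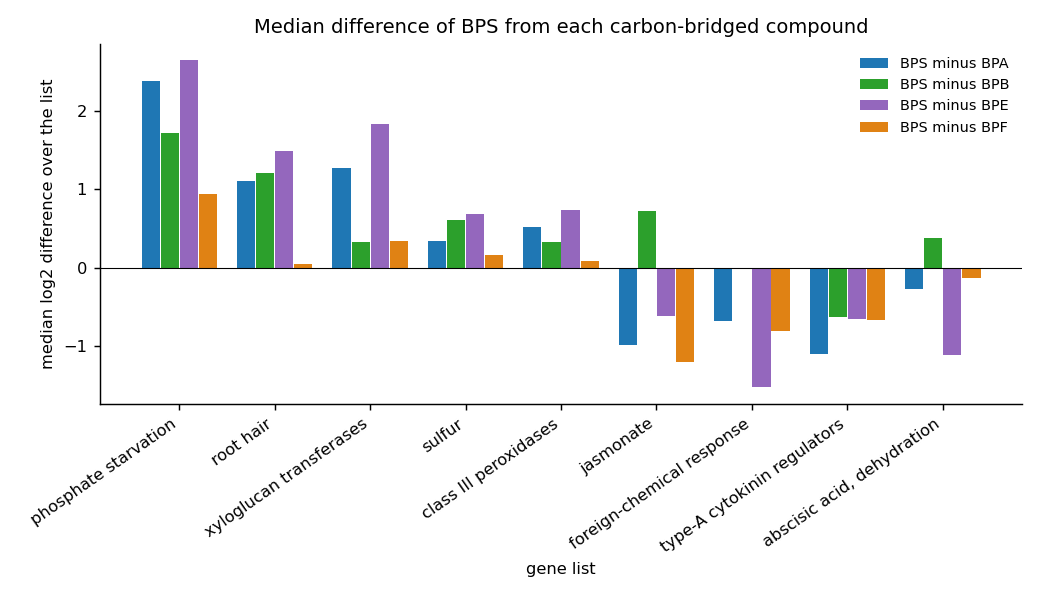
Median log2 difference of BPS from each carbon-bridged compound (bars, in the order BPA, BPB, BPE and BPF) for 9 gene lists. The BPF bar is the shortest of the 4 for the phosphate (0.94) and root hair (0.05) lists, and the BPB bar is positive for the jasmonate list (0.72) where the other 3 are negative.

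Over all tested genes, 12.3% were called higher and 11.5% lower (23.8% in all), the share against which each count against the carbon-bridged mean is to be read. Counts in single pairs have other shares. Of 19484 genes, 2016 were higher and 1535 lower against BPA, 800 and 1832 against BPB, 3341 and 3071 against BPE, and 733 and 822 against BPF. Some lists held fewer genes called against the mean than the share of 23.8%. Scavenging enzymes of reactive oxygen had 3 of 34 higher and 2 lower with a median of -0.03, hypoxia genes 1 of 22 higher and 2 lower with a median of -0.03, heat shock genes 1 of 17 higher and 1 lower, flavonoid genes 0 of 10 higher and 1 lower, and photosynthesis genes 3 of 37 higher and none lower with a median of -0.03. The lists that follow were nearer to that share or above it, except the salicylic acid list. Iron genes had 8 of 27 higher and 4 lower; F6'H1 (AT3G13610), which makes coumarins secreted for iron uptake, was separated at 116, 139 and 120 FPKM in BPS roots, against 26 to 85.3 in the carbon-bridged libraries and 78, 58.5 and 82.4 in control roots, while ABCG37, which exports such coumarins, was separated downward as given above. Copper genes had 1 of 13 higher and 5 lower. Auxin genes had 8 of 31 higher and 4 lower, ethylene genes 6 of 25 and 3, phenylpropanoid genes 4 of 21 and 1, indolic defence genes 2 of 15 and 3, and salicylic acid defence genes 2 of 17 and 1. Rapid stress genes had 5 of 13 higher and none lower, with a median of 1.27 that was -0.05 against BPB and 2.00 against BPE; NADPH oxidases had 3 of 8 higher and none lower. Without BPS library 2, 2 xyloglucan, 4 peroxidase, 4 foreign-chemical, 6 glutathione transferase and 5 abscisic acid genes were called, and without BPE in the mean 2, 9, 3, 10 and 6. With the 12 carbon-bridged libraries as a single group, no gene of the lists followed through the alternatives was called. A p above the threshold does not show that the compounds act alike, as the intervals given for BPF and BPB above show.

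Against control, BPS called 4094 genes (21.0%) and the carbon-bridged mean 3982 (20.4%); both use the same 3 control libraries. Photosynthesis genes were called higher than control for 29 of 37 in BPS and 33 of 37 in the carbon-bridged mean, against 12.3% and 13.7% of all tested genes. The part of green tissue in these 2 counts was not tested. Among the 151 genes separated upward, BPS minus control was called higher for 85, against 12.3% of all tested genes. Among the 268 separated downward it was called lower for 157, against 8.71% of all tested genes. The carbon-bridged mean minus control was called in the direction opposite to the BPS difference for 15 of the 151 and 37 of the 268. It was called in the same direction for 7 and 18. The separated genes were chosen by the same BPS and carbon-bridged values, so these counts are not evidence of a departure from control.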

How the data were processed

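RNA of wild-type roots was sequenced from 3 libraries in each of 6 groups. The authors deposited 1 table of FPKM values per library. The submitters' processing notes name the build TAIR10 and the tools StringTie 1.3.0, HISAT2 2.0.4 and edgeR; their settings and the strand used in counting are not given in the sources used here. Depth, recovered from steps in low FPKM values, limits precision most for genes near 1 FPKM.

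From the deposited values, log2(FPKM + 1) was fitted with limma 3.58.1 (R 4.3.3; 1 mean per group over all 18 libraries, trended variance) for genes averaging 1 FPKM or more, with Benjamini-Hochberg adjustment and a threshold of 0.05. The fit was run on simulated data with independent errors and no differences among the carbon-bridged compounds. Such data cannot show how the calls behave where those compounds differ or where a library deviates in many genes together. Names and promoters came from RefSeq (TAIR10.1; 32835 of 33602 loci matched).

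The comparison and gene lists were chosen with earlier results of these data known. Genes were named by rule: the 12 highest and 12 lowest separated and called genes, up to 4 called members of each list by adjusted p, up to 6 genes per direction called in all 4 pairs by their smallest difference, and up to 5 per direction by their gap or control place. PHT1;4, MGDC, MGD2, NPC4, SQD1, PEPC1, SPX1, SPX2, SPX3, IPS1, PHR1, PHO2, RNS1, ATSDI1, BGLU28, GGCT2;1, LSU1, SULTR3;5, EIL3, GSH1, GSH2, RSH2, XTH12, XTH13, XTH26, GSTU1 to GSTU7, GSTU14, GSTU19, CYP94B1, JAR1 and JAZ12 were in part outside it and chosen after their values were seen.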

Additional observations from a re-analysis of the deposited data

How the results depend on the processing

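The count of 4636 called genes ran from 3602 to 5883 under another pseudocount, filter, scaling or variance trend, with the 15 bisphenol libraries alone, without BPA, BPB or BPF in the mean, and with library 3 of BPS, BPA and BPB left out (5761). It was 1447 without BPE, 1129 at a log2 difference of at least 1, 1 with the 12 carbon-bridged libraries as 1 group, and 658 (without BPS library 2) to 6045 (without BPA library 3) when single libraries were left out. The 419 separated genes became 649 (351 higher, 298 lower) after shifting libraries to a common median, 2050 without BPB, 1544 without BPF, 2120 without library 3 of BPS, BPA and BPB, 2 at a gap of at least 1 log2, and 421 to 1866 when single libraries were left out; a range over fewer libraries is easier to leave. Against BPF, 593 genes were called with p adjusted within the pair. Without the libraries numbered 3, 5336 were called against BPA and 4542 against BPB. No named gene reversed under any alternative run for it, but only 1 of the 146 called named genes, BT1, kept its call in every setting. Of the 148 named genes, 79 lost their call without BPS library 2, 47 without BPE in the mean and 34 without BPS library 3. With the 12 carbon-bridged libraries as 1 group, 145 lost it. With the replicate number as a block, 5021 genes were called, 4483 of them shared with the 4636. Taken over all groups, libraries with the same number did not deviate together more than others. Correlations ran from -0.566 to 0.648 and were over 0.1 in 15 of 45 pairs, against 28 of 90 pairs with different numbers. Between BPS and BPB they were 0.584 for number 1, -0.0378 for number 2 and 0.648 for number 3. With 3 libraries per group these values cannot settle whether the number pairs libraries of some groups. Except where stated, the cause of these changes was not tested.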
